A study of Homo sapiens with 9 samples.

Results

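The genes described here are 10 transporters that carry amino acids across the plasma membrane: SLC7A5, SLC3A2, SLC7A11, SLC7A1, SLC1A4, SLC1A5, SLC38A1, SLC38A2, SLC43A1 and SLC6A9. They were chosen by name, with earlier results of these data known. All 10 were found among the 57773 features of the gene tables and had enough reads to be among the 12901 genes tested. RNA came from HepG2, an established line of human liver tumour cells, in 9 cultures that were each seeded, treated, extracted and sequenced separately. The exposure lasted 72 h and was to an organophosphate flame retardant and plasticiser, tris(2-butoxyethyl) phosphate (TBOEP), at 125 µM (3 libraries) or 2.5 µM (3 libraries), or to solvent alone (3 control libraries). All groups, the controls included, received 0.1% DMSO. HepG2 is a single tumour-derived line kept in serum-containing medium with added glutamine and non-essential amino acids, and the labels state that neither concentration was cytotoxic. Libraries were made from polyadenylated RNA with a strand-keeping kit.

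Amino acids enter cells through carriers that differ in what they carry and in what drives them. SLC3A2 is a heavy chain that holds a light chain at the cell surface. With SLC7A5 it exchanges intracellular amino acids such as glutamine for extracellular leucine and other large neutral amino acids, and with SLC7A11 it exchanges glutamate for cystine, the source of cysteine for glutathione. SLC1A5, SLC38A1 and SLC38A2 take up glutamine and small neutral amino acids with sodium, SLC1A4 carries alanine, serine and cysteine, SLC7A1 carries arginine and lysine, SLC43A1 lets large neutral amino acids pass down their gradient, and SLC6A9 carries glycine. Many of these genes are known targets of ATF4, a transcription factor made when amino acids are short or protein folding is disturbed. Import of leucine and glutamine also feeds the signals that activate the growth kinase complex mTORC1.

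At 125 µM the transcripts of 7 of the 10 transporters rose, those of SLC38A2 and SLC6A9 fell, and SLC1A4 did not pass the test. The rises ranged from 1.33-fold (SLC43A1) to 2.25-fold (SLC7A11), whereas SLC38A2, the most abundant of the 10, was 1.64-fold lower and SLC6A9 2.34-fold lower. At 2.5 µM SLC3A2, SLC1A5 and SLC7A5 rose, by 1.43-fold, 1.28-fold and 1.28-fold, and the other 7 did not pass. Each test is the quasi-likelihood test of edgeR on reads per gene, two-sided, with Benjamini-Hochberg adjustment over all 12901 genes and a threshold of 0.05. The 9 members called at 125 µM stand beside 40.2% of all tested genes called in that comparison, 20.3% higher and 19.9% lower. Levels are given in CPM, the share of reads per 1e6 reads after scaling between libraries, as mean ± SD of 3 libraries, and fold changes on the log2 scale with the SE of the fit.

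**Figure D1:**
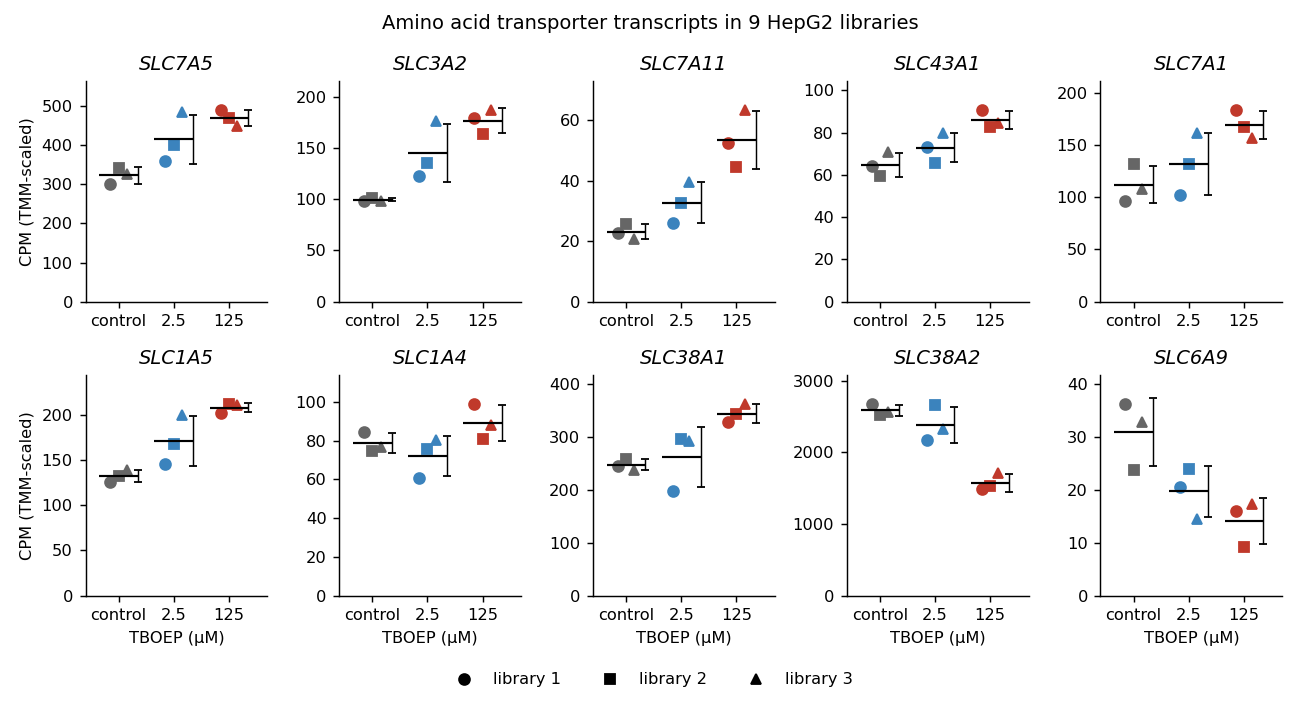
Level of each of the 10 transporter transcripts in CPM (linear axis from 0) in the 9 libraries, with controls in grey, 2.5 µM TBOEP in blue and 125 µM in red. Symbols mark library numbers, horizontal lines the group means and bars the SD of 3 libraries. All 3 libraries at 125 µM lie above all 3 controls for 7 genes and below them for SLC38A2 and SLC6A9, while SLC1A4 overlaps. Over all tested genes, 50.9% do not overlap in this comparison.

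Some facts of the libraries bear on all values. Total depth ranged from 2480964 to 11885877 gene reads, with the shallowest libraries being number 3 at each concentration, and a member's reads in a library ranged from 36 (SLC6A9) to 28604 (SLC38A2). Reads in introns of nuclear genes made up 6.87% ± 0.628 of the total with solvent, 6.00% ± 1.52 at 2.5 µM and 5.23% ± 0.298 at 125 µM, and 86 cytosolic ribosomal protein genes took 4.09% ± 0.224, 6.07% ± 0.953 and 6.16% ± 0.160 of the reads (n = 3 each). In both measures the first 2.5 µM library, at 7.74% intron and 4.97% ribosomal protein reads, lay nearer to the controls than the other libraries at 2.5 µM. All 10 hepatocyte markers examined were detected in each group, with a summed level of 57369 to 77912 CPM in controls, 52714 to 64289 at 2.5 µM and 40093 to 44763 at 125 µM. Of these markers 2 rose, 5 fell and 3 did not pass at 125 µM: ALB went from 35789.6 ± 7117 to 14389.8 ± 2736 CPM, while APOA2 rose from 1365 ± 161 to 2780.4 ± 109 CPM and AHSG from 5129 ± 214 to 6648 ± 759.9 CPM. The 15 markers of endothelial cells, leukocytes, fibroblasts and neural cells together reached 3.59 to 7.97 CPM in controls, 6.32 to 9.69 at 2.5 µM and 9.54 to 10.9 at 125 µM, and KDR, PTPRC, CD3E, COL1A2 and DCN had 0 reads in every group. Of the 3 tested among them, CD68 rose from 1.70 ± 1.14 to 5.78 ± 0.361 CPM at 125 µM and VWF fell from 1.88 ± 1.33 to 0.747 ± 0.662 CPM. The part of these shifts in the results was not tested, and in bulk RNA fewer cells of a type and less RNA per cell cannot be told apart.

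To show what lies before the start sites of the 10 genes, the 250 bases upstream of each RefSeq start (GRCh38.p14 table) were searched on both strands for 3 motifs. These were TGATGNAAN, the composite element bound by C/EBP and ATF factors such as ATF4, TGACNNNGC, the core of the antioxidant response element, and CACGTG, the E-box, where N is any base. The table held 16 starts for 9 of the 10 genes, SLC7A11 being the other. The composite element is in 3.13% of the 35116 promoters in the table, the antioxidant core in 10.9% and the E-box in 6.34%. Matches were found before starts of SLC7A5, SLC3A2, SLC7A1, SLC1A5 and SLC43A1. By gene, the composite element was found for 1 of the 9, the antioxidant core for 3 and the E-box for 3. The percentages above are per start, and the 9 genes had from 1 to 3 starts each, so the counts are not directly comparable. SLC38A2 and SLC6A9 had 1 start each, and further starts of SLC3A2, SLC1A5 and SLC43A1 held no match. A link between matches and the direction of change was not tested. The stretches are printed 5′ to 3′ on the strand of the gene with the match in capitals. No 2 matches overlap. Positions come from an exact match of the sequence to GRCh37.
SLC7A5, E-box, chr16:87903213-87903268, minus strand: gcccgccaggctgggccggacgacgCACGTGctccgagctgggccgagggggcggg
SLC43A1, E-box, chr11:57283257-57283312, minus strand: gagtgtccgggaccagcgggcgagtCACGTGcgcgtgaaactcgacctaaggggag
SLC3A2, antioxidant core, chr11:62649109-62649167, plus strand: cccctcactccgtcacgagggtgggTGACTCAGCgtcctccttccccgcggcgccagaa
SLC7A1, antioxidant core, chr13:30169877-30169935, minus strand: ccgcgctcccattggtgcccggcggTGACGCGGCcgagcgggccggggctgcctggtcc
SLC1A5, antioxidant core (opposite strand to the gene), chr19:47290643-47290671, minus strand: cctggatcttGCGAGGTCAgctcccgctc
SLC1A5, E-box, chr19:47290585-47290610, minus strand: cgggagtggtCACGTGgacaggacgg
SLC1A5, composite element, chr19:47288150-47288178, minus strand: aggaagtggcTGATGCAAGctgtccaggg

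The SLC7A5, SLC43A1 and SLC7A1 matches lie outside annotated genes, just upstream of their own. The SLC3A2 stretch is in an intron of SLC3A2, before a start inside the gene, and the SLC1A5 stretches overlap annotated exons of SLC1A5 and belong to different starts in the table, those of the first pair to one and the composite element to another. For SLC1A4, SLC38A1, SLC38A2 and SLC6A9, these letters are not in the windows searched. Each window ends at its start, so an element after that start, in an exon or intron, lies outside it. A match describes the sequence only: binding was not measured here.

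Levels of different genes are compared per exon length, in the RPKM deposited by the authors (reads scaled by exon length and by mapped reads). In controls SLC38A2 stood first at 345 ± 3.84 RPKM, followed by SLC7A5 at 61.3 ± 6.74, SLC1A5 at 36.2 ± 3.03, SLC38A1 at 22.6 ± 1.67 and SLC3A2 at 17.8 ± 1.05 (n = 3 each). Lower levels were found for SLC7A1 at 13.7 ± 2.86, SLC43A1 at 12.7 ± 1.43, SLC1A4 at 10.1 ± 0.405, SLC6A9 at 4.40 ± 0.852 and SLC7A11 at 1.47 ± 0.196 RPKM. Neighbours in this order did not overlap between libraries, except for SLC7A1 and SLC43A1. SLC38A2 exceeded 99.5% of all tested genes in mean RPKM and SLC7A11 30.8%. At 125 µM SLC38A2 was still first at 224 ± 19.8 RPKM, 2.36 times the level of SLC7A5, where it had been 5.62 times that level in controls. SLC7A11 and SLC6A9 changed places, at 3.93 ± 0.850 and 2.30 ± 0.679 RPKM at 125 µM, and their libraries did not overlap. SLC3A2 and SLC38A1 were at 33.0 ± 2.35 and 32.8 ± 1.74 RPKM there, with overlapping libraries. Exon length is that of all annotated transcripts of a gene together, so RPKM understates genes with long exons that these cells do not use.

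The heavy chain SLC3A2 (chromosome 11, 62623518 to 62656352, build hg19, as for all gene positions here) was at 98.7, 102 and 98.5 CPM in controls, 123, 135 and 177 at 2.5 µM and 179.6, 163 and 187 at 125 µM. Controls lay within a narrow range, every treated library was above them, and the third library at 2.5 µM reached the levels of 125 µM. Its log2 fold change was 0.82 ± 0.11 at 125 µM (adjusted p = 8.22e-05) and 0.52 ± 0.11 at 2.5 µM (adjusted p = 0.0134). Among the 10 genes it had the largest log2 fold change at 2.5 µM of those that passed. The difference between the concentrations, 0.30 ± 0.11, did not pass (adjusted p = 0.0830). The antioxidant core printed for this gene lies before a start inside it, and counts per gene do not tell its starts apart.

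SLC7A5, the light chain for large neutral amino acids (chromosome 16, 87863629 to 87903094), was at 301, 343 and 327 CPM in controls, 361, 400.4 and 484 at 2.5 µM and 491, 469 and 449 at 125 µM. Every treated library was above every control, and the 2 concentrations overlapped. It rose by 0.54 ± 0.10 at 125 µM (adjusted p = 9.05e-04) and by 0.35 ± 0.10 at 2.5 µM (adjusted p = 0.0403). The pseudogenes SLC7A5P1 and SLC7A5P2 held 1 and 0 reads over the 9 libraries beside 26083 for SLC7A5, so few reads were assigned to these copies.

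SLC7A11, the cystine-glutamate exchanger (chromosome 4, 139085251 to 139163503), was at 22.9, 25.7 and 20.8 CPM in controls, 26.0, 32.7 and 39.6 at 2.5 µM and 52.5, 44.4 and 63.5 at 125 µM. The 3 groups did not overlap, and the third library was the highest at each concentration of TBOEP. It rose by 1.17 ± 0.16 at 125 µM (adjusted p = 6.52e-05), the largest rise of the 10 genes there, and stood 0.72 ± 0.15 above 2.5 µM (adjusted p = 0.00548). At 2.5 µM the value of 0.45 ± 0.16 did not pass (adjusted p = 0.0860). SLC7A11 overlaps its antisense gene SLC7A11-AS1, which had 14 reads over the 9 libraries beside 2292 for SLC7A11.

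Because both light chains depend on SLC3A2, their RPKM was also set against that of the heavy chain in each library. The ratio of SLC7A5 to SLC3A2 was 3.21, 3.57 and 3.55 in controls, 3.12, 3.15 and 2.96 at 2.5 µM and 2.92, 3.11 and 2.60 at 125 µM. Its mean went from 3.45 ± 0.204 in controls to 3.08 ± 0.102 and 2.88 ± 0.260, with all treated libraries below all controls. The ratio of SLC7A11 to SLC3A2 was 0.0797, 0.0896 and 0.0784 in controls, 0.0707, 0.0970 and 0.0888 at 2.5 µM and 0.113, 0.103 and 0.139 at 125 µM, where all 3 libraries exceeded the other 6. On the log2 scale the difference from controls at 125 µM was -0.26 for SLC7A5 and 0.51 for SLC7A11. In exact two-sided permutation tests over libraries both had p = 0.1, the smallest that 3 against 3 libraries allow, and adjusted p = 0.15 over the 6 comparisons made, so neither difference could pass.

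SLC1A5, the sodium-dependent glutamine carrier (chromosome 19, 47278140 to 47291851), was at 125, 132 and 138 CPM in controls, 145, 168 and 199 at 2.5 µM and 201, 212 and 210.0 at 125 µM. The 3 groups did not overlap, and the libraries at 125 µM lay close together. It rose by 0.66 ± 0.10 at 125 µM (adjusted p = 2.01e-04) and by 0.36 ± 0.10 at 2.5 µM (adjusted p = 0.0383). SLC1A4, its relative for alanine, serine and cysteine (chromosome 2, 65215611 to 65250999), was at 84.6, 74.8 and 76.7 CPM in controls, 60.5, 75.8 and 80.4 at 2.5 µM and 99.0, 80.7 and 88.1 at 125 µM. Controls and treated libraries overlapped, and neither 0.18 ± 0.11 at 125 µM (adjusted p = 0.231) nor -0.15 ± 0.11 at 2.5 µM (adjusted p = 0.432) passed. It was the only one of the 10 whose mean at 2.5 µM did not lie between those of the other groups.

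SLC38A1 and SLC38A2 lie close together on chromosome 12 and encode closely related sodium-coupled carriers of glutamine and alanine. They changed in opposite directions at 125 µM. SLC38A1 (chromosome 12, 46576846 to 46663800) was at 245, 259 and 238 CPM in controls, 197, 296 and 292 at 2.5 µM and 328, 342 and 362 at 125 µM. The high concentration lay above both other groups, while the 2.5 µM libraries fell on both sides of the controls. It rose by 0.47 ± 0.13 at 125 µM (adjusted p = 0.00761) and stood 0.40 ± 0.13 above 2.5 µM (adjusted p = 0.0441), whereas 2.5 µM against control gave 0.07 ± 0.13 (adjusted p = 0.744).

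SLC38A2 (chromosome 12, 46751972 to 46766650), which cells induce when amino acids are withdrawn, was at 2674, 2516 and 2561 CPM in controls, 2166, 2659 and 2317 at 2.5 µM and 1483, 1526 and 1709.8 at 125 µM. All libraries at 125 µM were below the other 6, and the lower concentration overlapped the controls. The change was -0.72 ± 0.10 against controls (adjusted p = 7.37e-05) and -0.60 ± 0.10 against 2.5 µM (adjusted p = 0.00107), with -0.12 ± 0.10 at 2.5 µM (adjusted p = 0.463). The overlapping feature RP11-474P2.2 had 130 reads over the 9 libraries beside 140453 for SLC38A2.

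SLC38A2 made up 69.9% ± 1.37 of the summed CPM of the 10 genes in controls, 64.4% ± 3.56 at 2.5 µM and 49.4% ± 1.96 at 125 µM (n = 3 each). CPM does not account for exon length. Of the summed RPKM, SLC38A2 made up 65.7% ± 1.78, 59.2% ± 4.03 and 44.1% ± 2.14. The sum of all 10 was 3748, 3667 and 3672 CPM in controls and 3274, 3988 and 3845 at 2.5 µM. At 125 µM it was 3124, 3097 and 3328 CPM, lower than in controls although 7 of the genes rose. Without SLC38A2 the sum of the other 9 was 1074, 1151 and 1111 CPM in controls. At 2.5 µM it was 1109, 1329 and 1528 CPM, and at 125 µM 1642, 1571 and 1618 CPM, above both other groups. On RPKM the sum of all 10 was 525 ± 16.0 in controls and 506 ± 21.2 at 125 µM, with overlapping libraries, and that of the other 9 was 180.2 ± 14.5 and 283 ± 5.49. These sums describe the 10 genes and were not tested.

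**Figure D2:**
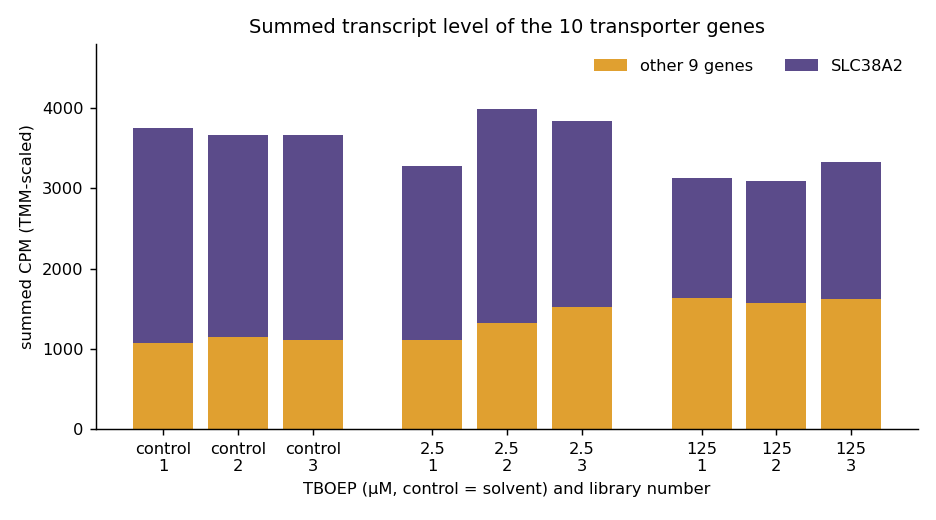
Summed CPM (linear axis from 0) of the 10 transporter genes in each library, with SLC38A2 in purple on top of the other 9 genes in orange. SLC38A2 holds 68.6 to 71.3% of the sum in controls and 47.5 to 51.4% at 125 µM, where the other 9 genes sum to 1571 to 1642 CPM.

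SLC7A1, the carrier of arginine and lysine (chromosome 13, 30083547 to 30169825), was at 96.5, 132 and 108 CPM in controls, 102, 132 and 162 at 2.5 µM and 184, 168 and 156 at 125 µM. The high concentration lay above the controls, while 2.5 µM spanned the range from the controls to the high concentration. It rose by 0.60 ± 0.14 at 125 µM (adjusted p = 0.00407), and 0.22 ± 0.15 at 2.5 µM did not pass (adjusted p = 0.360).

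SLC43A1, the facilitative carrier of large neutral amino acids (chromosome 11, 57252007 to 57283259), was at 64.2, 59.4 and 70.8 CPM in controls, 73.1, 65.7 and 79.6 at 2.5 µM and 90.8, 82.7 and 84.4 at 125 µM. The libraries at 125 µM were above the other 6. It rose by 0.41 ± 0.10 at 125 µM (adjusted p = 0.00355), and 0.16 ± 0.10 at 2.5 µM did not pass (adjusted p = 0.321). The share of its reads in introns was 31.7, 27.0 and 25.0% in controls, 22.4, 19.2 and 13.2% at 2.5 µM and 15.5, 11.8 and 7.39% at 125 µM, and no library at 125 µM or 2.5 µM reached the control range. On exon reads alone the log2 fold change was larger, 0.64 at 125 µM (adjusted p = 2.14e-04) and 0.31 at 2.5 µM (adjusted p = 0.0655). On the deposited RPKM, which counts exon reads, limma gave 0.74 at 125 µM on the log2(RPKM + 0.5) scale. On that scale the median of all tested genes was also higher, at 0.085 beside 0.0036 in the main fit. The mean intron share over all nuclear genes was also lower at 125 µM than in controls, and its part in this difference was not tested.

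SLC6A9, the glycine carrier (chromosome 1, 44457172 to 44497139), was at 36.2, 23.7 and 32.8 CPM in controls, 20.6, 24.0 and 14.5 at 2.5 µM and 16.0, 9.21 and 17.3 at 125 µM. All libraries at 125 µM lay below all controls, and the second library at 2.5 µM overlapped the lowest control. It fell by 1.23 on the log2 scale at 125 µM (SE 0.23, adjusted p = 6.71e-04), and -0.59 ± 0.21 at 2.5 µM did not pass (adjusted p = 0.0830). It has the fewest reads of the 10 over the 9 libraries together, with 593 in the controls, 509 at 2.5 µM and 290 at 125 µM. In controls alone SLC7A11 had fewer, 429. It overlaps CCDC24, which had 25 reads over the 9 libraries.

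SLC7A11, SLC6A9 and SLC43A1 had the highest shares of intron reads among the 10, with 32.4, 22.6 and 19.2% over the 9 libraries. The other 7 members had between 2.47% (SLC3A2) and 9.11% (SLC1A4). For SLC7A11 the share was 36.4% ± 2.86 in controls, 32.2% ± 6.86 at 2.5 µM and 29.7% ± 2.35 at 125 µM, and for SLC6A9 23.5% ± 6.21, 23.4% ± 1.41 and 16.3% ± 3.67 (n = 3 each). Exon reads alone gave log2 fold changes at 125 µM of 1.25 for SLC7A11 and -1.18 for SLC6A9, both past the threshold (adjusted p = 1.04e-04 and 6.89e-04). All reads of the 10 genes were uniquely mapped.

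**Figure D3:**
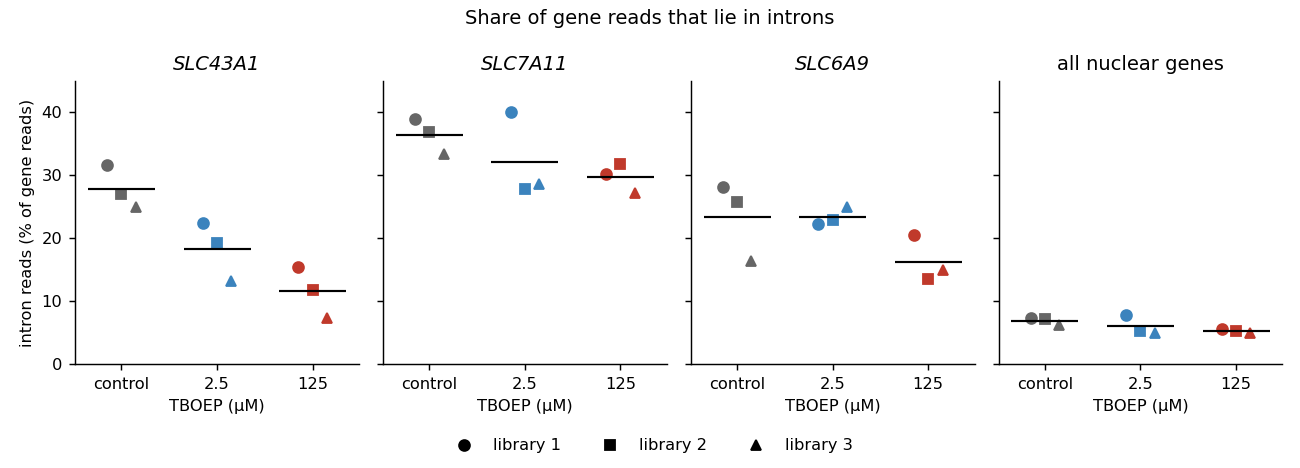
Reads in introns as a percentage of all gene reads for SLC43A1, SLC7A11, SLC6A9 and all nuclear genes together, by library (symbols) and group, with horizontal lines at the group means. SLC43A1 goes from 25.0 to 31.7% in controls to 7.39 to 15.5% at 125 µM, while all nuclear genes go from 6.14 to 7.24% to 4.91 to 5.50%.

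Taking the 10 genes as a group, the median log2 fold change at 125 µM was 0.51 beside 0.0036 over all tested genes, and 9 of 10 had groups that did not overlap, beside 50.9% of all tested genes. At 2.5 µM 3 of 10 were called, beside 11.0% of all genes (6.02% higher, 5.03% lower), the median was 0.19 beside -0.0053, and 4 of 10 (SLC7A5, SLC3A2, SLC7A11 and SLC1A5) did not overlap with controls, beside 28.2%. Between the concentrations 3 of 10 were called, beside 14.9% of all genes (7.48% higher, 7.44% lower), namely SLC7A11 and SLC38A1, higher at 125 µM, and SLC38A2, lower. There 6 of 10 did not overlap, beside 32.8% of all genes. For 9 of the 10 genes the mean at 2.5 µM lay between those of controls and 125 µM. The comparisons of each concentration with solvent share the 3 control libraries, so their values are not independent of each other. Because the 10 genes were chosen with earlier results of these data known, the contrasts with all tested genes are description only.

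**Figure D4:**
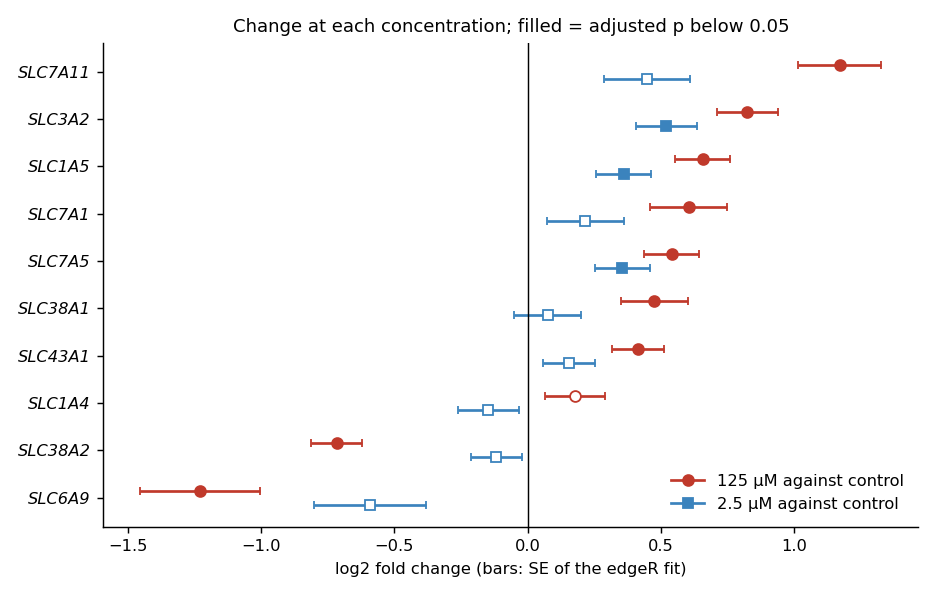
Log2 fold change of the 10 transporter genes at 125 µM (red circles) and 2.5 µM (blue squares) against control, with bars for the SE of the edgeR fit and filled symbols for adjusted p below 0.05. At 125 µM 9 symbols are filled, from -1.23 (SLC6A9) to 1.17 (SLC7A11), and at 2.5 µM those of SLC3A2, SLC1A5 and SLC7A5.

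The calls at 125 µM held in all 20 alternative analyses for the 9 genes, and SLC1A4 did not pass in any (adjusted p between 0.133 and 0.612). Those at 2.5 µM were less stable: SLC3A2 passed in 17 of 20, SLC1A5 in 11 and SLC7A5 in 9. Without the first control library none of the 10 passed at 2.5 µM in edgeR, with adjusted p = 0.0614 for SLC3A2, 0.163 for SLC1A5 and 0.186 for SLC7A5. In that fit 4 of the 10 had an unadjusted p below 0.05, and DESeq2 on all 9 libraries called 3. Without the third control library, or the second or the third library at 2.5 µM, or the first or the third at 125 µM, SLC3A2 alone passed. Without the third 2.5 µM library the difference between the concentrations passed for 9 of the 10, SLC43A1 being the exception. Of the 3 calls between concentrations, SLC38A2 passed in 20 of 20 alternatives, SLC7A11 in 18 and SLC38A1 in 12.

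By the root mean square difference of centred log2 levels over the 9 libraries, the gene most like each changed member was looked for among 8699 other tested genes with a mean of at least 10 CPM. SLC3A2 was nearest to PSAT1, an enzyme of serine synthesis, at a difference of 0.0779, and to the tRNA deacylase gene DTD1 at 0.0910. SLC1A5 was nearest to the kinase gene RIOK3 (0.0535) and to CEBPB, a C/EBP transcription factor (0.0558), and SLC7A5 to the RNA-binding protein gene RBM3 (0.0578) and the receptor kinase gene TYRO3 (0.0637). SLC7A11 was nearest to TMSB10 (0.131) and RHOC (0.136), which act on the actin cytoskeleton, and SLC7A1 to MFHAS1 (0.0814) and UTP15 (0.0899). SLC38A1 was nearest to MARS, the methionyl-tRNA synthetase (0.0943), and the tubulin tyrosine ligase gene TTL (0.103), and SLC43A1 to the dynamin gene DNM2 (0.0467) and FPGS, an enzyme of folate retention (0.0480). The falling genes were nearest to the methionine salvage enzyme ADI1 (0.0782) and the coagulation inhibitor PROS1 (0.0788) for SLC38A2, and to the transcription factor genes SALL1 (0.136) and GATA4 (0.145) for SLC6A9. UTP15, MARS and DNM2 overlap other tested genes and are uncertain for that reason. These differences describe likeness over shared libraries and carry no test.

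Of 41 other amino acid transporter genes listed, 22 had enough reads to be tested, and at 125 µM 7 of them rose, 10 fell and 5 did not pass, with a median log2 fold change of 0.06, beside 20.3% higher and 19.9% lower over all tested genes. The steepest of those named was SLC6A14, a sodium- and chloride-driven carrier of neutral and cationic amino acids, at 133 ± 73.6 CPM in controls, 35.9 ± 17.5 at 2.5 µM and 18.2 ± 10.5 at 125 µM (log2 fold change -3.11 ± 0.47 at 125 µM, adjusted p = 1.51e-04). Its control libraries ranged from 49.9 to 189 CPM. The glutamate transporter SLC1A2 went from 182 ± 21.9 to 75.4 ± 1.52 CPM (-1.28 ± 0.10), the glutamine carrier SLC38A5 from 50.1 ± 11.4 to 17.5 ± 2.25 CPM (-1.55 ± 0.18) and its relative SLC38A11 from 48.8 ± 6.69 to 13.0 ± 1.09 CPM (-1.95 ± 0.19). SLC7A6, another light chain of SLC3A2, fell by 0.90 (SE 0.13) and the proline and tryptophan carrier SLC36A4 by 1.10 (SE 0.18) on the log2 scale. SLC43A2, a relative of SLC43A1, rose from 8.21 ± 3.24 to 29.1 ± 7.23 CPM (1.98 ± 0.25), and SLC7A2, the cationic carrier typical of liver, from 236 ± 13.0 to 359 ± 44.6 CPM (0.61 ± 0.12). SLC7A6 overlaps SLC7A6OS and is uncertain for that reason. At 2.5 µM 1 of the 22 rose (SLC38A4) and 4 fell (SLC1A2, SLC6A14, SLC38A5 and SLC38A11), beside 11.0% of all genes called.

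**Figure D5:**
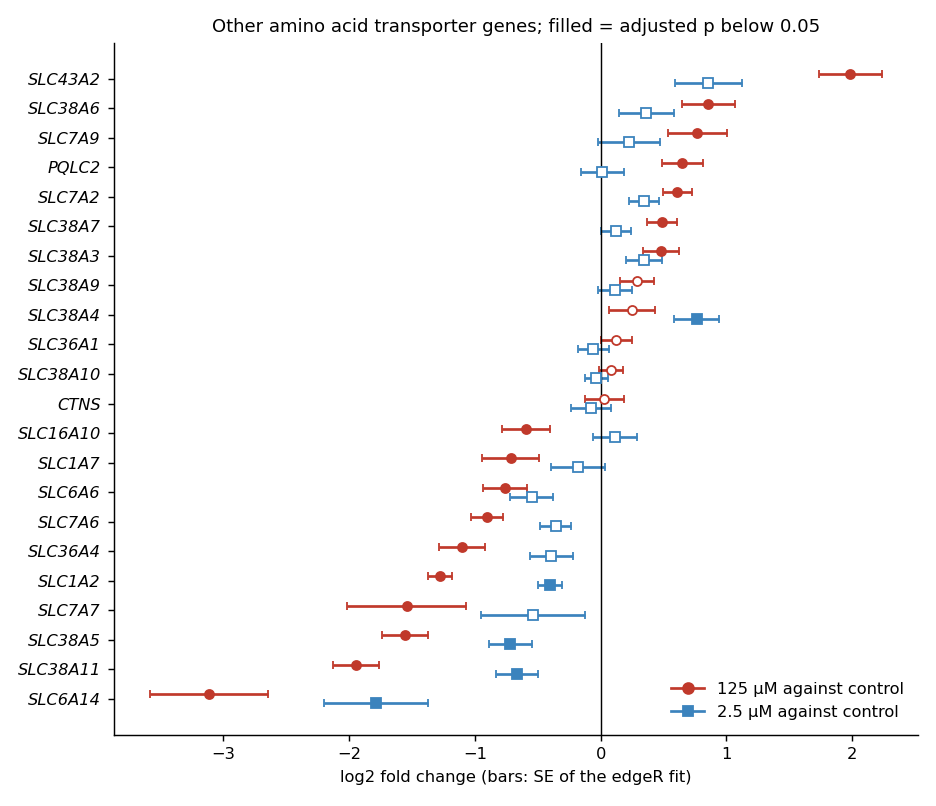
Log2 fold change of the 22 tested amino acid transporter genes outside the 10, at 125 µM (red circles) and 2.5 µM (blue squares) against control, with bars for the SE of the edgeR fit and filled symbols for adjusted p below 0.05. At 125 µM 7 rose and 10 fell, from -3.11 (SLC6A14) to 1.98 (SLC43A2).

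Genes of amino acid sensing and metabolism were counted in the same way, beside the 40.2% of all tested genes called at 125 µM (20.3% higher, 19.9% lower). Of 31 tested genes of amino acid sensing upstream of mTORC1, 7 rose, 3 fell and 21 did not pass at 125 µM, so that 32.3% were called, less than over all genes. DDIT4 and SESN2, which restrain mTORC1, rose by 1.02 ± 0.10 and 1.18 ± 0.13 on the log2 scale. TSC1 and SESN1, whose products also restrain this kinase, changed by -0.50 ± 0.10 and -0.54 ± 0.10. The sensing gene WDR59, which is not counted among these restraining genes, changed by -0.50 ± 0.10. WDR59 overlaps ZNRF1. Of 21 tested eIF2alpha kinases and ATF, C/EBP and related factors, 6 rose, 6 fell and 9 did not pass, so that 57.1% were called. TRIB3 changed by 1.39 ± 0.14, CEBPG by 0.71 ± 0.12, CEBPB by 0.65 ± 0.12, KEAP1 by -0.83 ± 0.12 and TFEB by -1.05 ± 0.19. The transcript of ATF4 itself did not pass in edgeR, at -0.05 ± 0.10 at 125 µM (adjusted p = 0.709). At 2.5 µM ATF4 was at -0.04 ± 0.10 (adjusted p = 0.811), and its protein was not measured here. A mixed list held 18 tested genes that make or use glutamine, cystine or asparagine, or act on related amino acids or glutathione. Of these 9 rose (50.0%) and the other 9 did not pass at 125 µM. Those that rose include ASNS, which makes asparagine, at 55.4 ± 4.97 CPM in controls, 93.9 ± 23.4 at 2.5 µM and 144 ± 9.23 at 125 µM, the aspartate aminotransferase GOT1 (1.08 ± 0.08), PSAT1 (0.84 ± 0.13), the argininosuccinate lyase ASL (0.74 ± 0.11) and the glutathione peroxidase GPX4 (0.51 ± 0.08). ASL overlaps AC068533.7. The medians of these lists were 0.10, -0.0052 and 0.34 beside 0.0036 over all tested genes. At 2.5 µM 2 of the sensing genes (LAMTOR5 and DDIT4), 1 of the factors (TRIB3) and 4 of the mixed metabolic list (ASNS, PSAT1, GPX4 and ASL) rose. No other gene of these 3 lists passed in the edgeR fit. These are 6.45, 4.76 and 22.2% of the lists, beside 11.0% of all genes (6.02% higher, 5.03% lower).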

How the data were processed

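Polyadenylated RNA of 9 HepG2 cultures was sequenced as paired ends, 2 × 50 bases. Reads were aligned to hg19 and annotated with CLC Genomics Workbench by the authors, per the labels; the sources used here do not give its version and strand setting. The values used are the deposited read counts per gene (exon and intron reads together, with exon, intron and unique reads in columns of their own) and the deposited RPKM, which per the file headers is computed by the authors from exon reads and exon length. Groups and replicate numbers came from the sample titles.

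Counts were fitted over all 9 libraries in 3 groups with edgeR 4.0.16 in R 4.3.3 (filterByExpr, TMM scaling, glmQLFit and glmQLFTest, two-sided, Benjamini-Hochberg over 12901 genes, threshold 0.05). The fit was also run on simulated counts, with the same setting of spread for every gene and changes only in genes with many reads. That run does not cover changes in genes with few reads, or spread that differs between genes. The common biological coefficient of variation was 10.05%. A total of 3 reads was 0.252 to 1.21 CPM by library. Alternatives used DESeq2 1.42.0, limma 3.58.1 on log2(RPKM + 0.5) or log2(RPKM + 0.1), other scalings, filters and read columns, a replicate block, and each library left out in turn.

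Members and gene lists were chosen with earlier results of these data known. Besides the 10 members, genes named are those past the threshold at 125 µM with the smallest adjusted p, up to 8 of the other transporters and up to 5 of each other list, and for each changed member the 2 genes of most like pattern. List genes past the threshold at 2.5 µM, single marker genes and ATF4 were named after their values were seen. Promoter sequences are from RefSeq. Not every overlap of a member with another feature is reported here.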

Additional observations from a re-analysis of the deposited data

How the results depend on the processing

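At 125 µM against control all 10 transporters kept direction and call in the 20 alternatives, and 9 were called in each. At 2.5 µM the count of 3 members called became 5 with no filter on low counts, 1 with only the 2 groups compared, 0 with limma on either RPKM scale (5 at an unadjusted p below 0.05; 3 by DESeq2), and 0 to 4 with a library left out. Genes called there, 1425, became 731 with only the 2 groups compared, 216 on log2(RPKM + 0.5), 0 on log2(RPKM + 0.1), where 3332 had an unadjusted p below 0.05, and 213 to 2050 with a library left out. Between concentrations the 3 members called became 8 with no filter, 1 on each RPKM scale, and 2 to 9 with a library left out. The 1925 genes called became 968 and 864 on RPKM, and 799 to 2230 with a library left out. The cause of these shifts was not tested. SLC38A1 at 2.5 µM, between -0.034 and 0.25 with a library left out, turned to -0.034 without the second and -2.7e-05 without the third 2.5 µM library, and it was not called in either case. On log2(RPKM + 0.5), 66.5% of calls at 125 µM were rises, against 50.5% on counts (at 2.5 µM 79.2 against 54.5%, between concentrations 68.8 against 50.1%), and log2(RPKM + 0.1) moved the median of all genes to 0.107. Same-numbered libraries correlated at -0.256 to 0.198 in their deviations from group means, so the numbers were not taken as pairs. With the replicate as a block, 5066, 1274 and 1771 genes and 9, 2 and 4 members were called at 125 µM, at 2.5 µM and between concentrations. Depth limits SLC6A9 most, at 36 reads in the third 2.5 µM library.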
